A study of Mus musculus with 21 samples.

Results

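The genes described are 10 genes of the p53 response and of apoptosis in mouse embryonic stem cells: Trp53, Mdm2, Ei24, Casp2, Bcl2l11, Bbc3, Pmaip1, Bax, Ccng1 and Trp53inp1. They were chosen by symbol, and each matched a single row of the 22512 rows of the count table. The rule itself uses no measured value, but the genes were proposed with earlier results of these data known. Ei24 and Casp2 are known microRNA targets. Total RNA was sequenced from 7 groups of 3 libraries, 21 libraries in all, in a pair of experiments. Every group descends from a 129S6/SvEvTac embryonic stem cell line that carries stable FLAG-Cas9 and a GFP reporter with TRIM71 binding sites, grown on gelatin in serum with LIF. Experiment 1 holds W (the parental line), Trim71KO (Trim71-/-) and Ago2KO (Ago2-/-), none of them transfected. Experiment 2 holds the parental line transfected with a pCIP plasmid for FH-T6B_WT::mCherry (T6B_WT) or for FH-T6B_MUT::mCherry (T6B_MUT), and the Trim71-/- and Ago2-/- lines with an empty plasmid (Trim71KO_empty, Ago2KO_empty). The series asks how RNA-silencing pathways that involve AGO2 and TRIM71 meet on the GW182 (TNRC6) proteins. The design text calls the 3 libraries of a group biological replicates, and the labels do not say how many clones each edited line comes from.

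p53, the product of Trp53, is a transcription factor that MDM2 marks for degradation, and stress that frees p53 from MDM2 switches on genes for growth arrest and cell death. PUMA (Bbc3), NOXA (Pmaip1) and BIM (Bcl2l11) are BH3-only proteins that set off mitochondrial pore formation by BAX, while cyclin G1 (Ccng1), TP53INP1 and MDM2 are p53 targets that act back on p53. Mouse embryonic stem cells are rich in microRNAs of the miR-290 and miR-302 clusters, whose shared seed directs Argonaute proteins such as AGO2 to messenger RNAs, and AGO2 recruits TNRC6 to silence them. T6B is a peptide derived from TNRC6B that binds Argonaute and displaces endogenous TNRC6, while TRIM71 silences other messenger RNAs, which it binds through hairpins.

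The seeds below are shown because they decide which of the 10 messenger RNAs carry a candidate site. The mature sequences were taken from RefSeq (GRCm38.p6), 5′ to 3′, with the seed (bases 2 to 8) in capitals. The first 4 share the seed of the miR-290 and miR-302 clusters, the next pair that of the miR-17 family, which is shifted by 1 base, and the last is miR-92a.
mmu-miR-291a-3p: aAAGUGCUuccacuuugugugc
mmu-miR-294-3p: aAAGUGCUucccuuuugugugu
mmu-miR-295-3p: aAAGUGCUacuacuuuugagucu
mmu-miR-302d-3p: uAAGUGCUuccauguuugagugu
mmu-miR-17-5p: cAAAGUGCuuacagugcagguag
mmu-miR-20a-5p: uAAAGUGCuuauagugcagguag
mmu-miR-92a-3p: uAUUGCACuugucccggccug

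A site complementary to the miR-290 and miR-302 seed (AGCACTT) was present in the longest annotated 3′ UTR (GENCODE M21, GRCm38) of 5 genes, Ei24, Casp2, Bcl2l11, Ccng1 and Trp53inp1. The 3′ UTRs of Trp53, Mdm2, Bbc3, Pmaip1 and Bax, which span 565, 1335, 971, 2192 and 224 bases, held none. The sites in Ei24, Casp2, Bcl2l11 and Trp53inp1 are given with 18 bases before it and 5 after it in the sense of the messenger RNA, with the site in capitals and its GRCm38 position after the gene symbol.
Ei24, chr9:36779889-36779895, minus strand: ttttccagctgtttttttAGCACTTgccag
Casp2, chr6:42281558-42281564, plus strand: tatgtgatataacctagaAGCACTTgtctc
Bcl2l11, chr2:128159580-128159586, plus strand: ttccattatgccgagtaaAGCACTTgtctt
Bcl2l11, chr2:128159777-128159783, plus strand: tgcacagcctggtggaggAGCACTTtctaa
Bcl2l11, chr2:128160451-128160457, plus strand: gccagtctccccgactggAGCACTTtactg
Trp53inp1, chr4:11174226-11174232, plus strand: atacagaatgaacagcacAGCACTTtgcca

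The single Ei24 site lay 212 bases into a 3′ UTR of 948 bases, and 9.9% of 3′ UTRs of similar length (0.8 to 1.25 times) held such a site. Bcl2l11, with a 3′ UTR of 4218 bases, was the only one of the 10 with more than 1 site. Of 3′ UTRs of similar length to those of Bcl2l11, Trp53inp1, Ccng1 and Casp2, 39.4%, 41.6%, 25.3% and 22.2% held the motif, against 14.7% of all 21037 3′ UTRs searched. The miR-17 motif (GCACTTT) occurred in Casp2, Bcl2l11, Ccng1 and Trp53inp1 and in 11.8% of all 3′ UTRs. At 2 of the Bcl2l11 sites and at the Trp53inp1 site it overlaps the miR-290 motif with a shift of 1 base. The miR-130 motif (TTGCACT, 10% of all 3′ UTRs) was present in Bcl2l11, Ccng1 and Trp53inp1. The miR-92 motif (GTGCAAT, 6.6% of all 3′ UTRs) occurred in Bcl2l11 alone among the 10, at 2 places, of which the site at chr2:128162449-128162455 reads gtaattgccactgtacctGTGCAATactgc. None of the 10 held the let-7 motif (CTACCTC, 9.0% of all 3′ UTRs). Only the strand of the messenger RNA was searched, and a match is a run of letters, not a measured binding site.

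**Figure D1:**
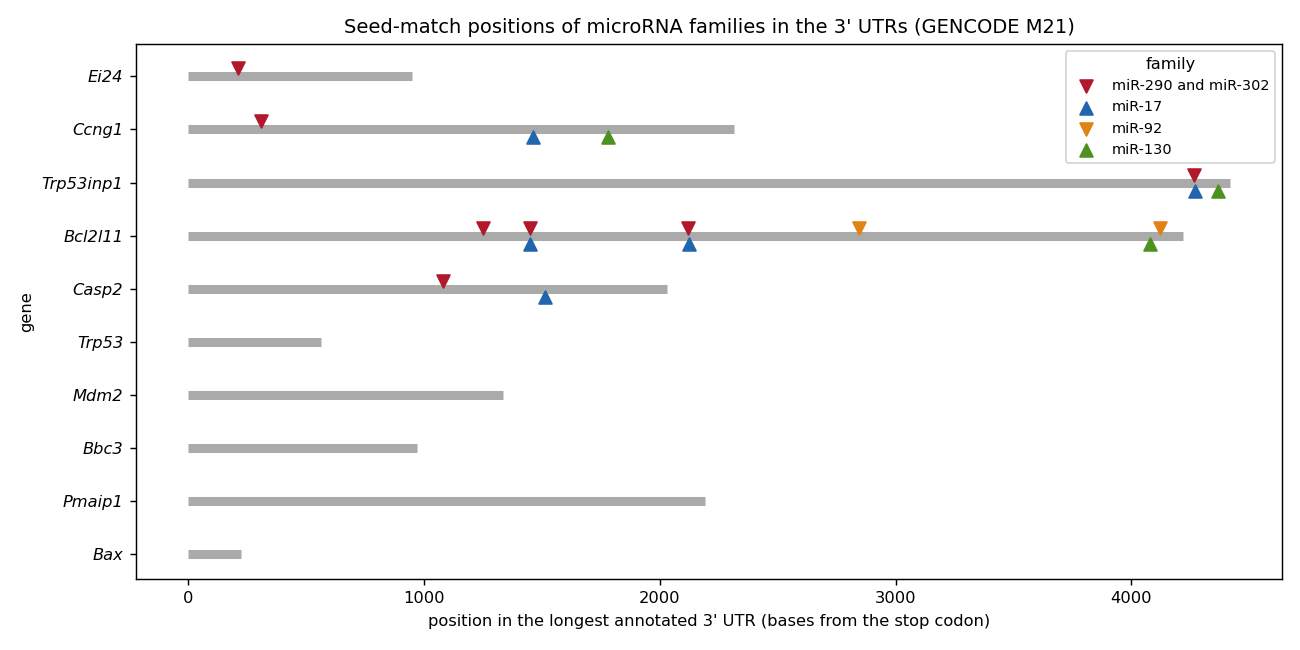
Seed matches in the longest annotated 3′ UTR of each of the 10 genes; the x axis is the distance from the first base after the stop codon in bases, and each marker is a 7-base match coloured by microRNA family. Bcl2l11 carries 3 matches to the miR-290 and miR-302 seed, Ei24, Casp2, Ccng1 and Trp53inp1 carry 1 each, and Trp53, Mdm2, Bbc3, Pmaip1 and Bax carry none.

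The libraries held 29561125 to 50826201 gene counts in Experiment 1 and 33910145 to 57872324 in Experiment 2, and all 10 genes passed the low-count filter in each fit, with a lowest single count of 183 (Bcl2l11). All 8 embryonic stem cell markers were expressed, with a summed level of 3410 to 4750 CPM (counts scaled to a common library size, after TMM within each experiment). Primitive endoderm markers were low, but summed to 17.3 to 20.2 CPM in W, 5.78 to 7.54 in Ago2KO and 3.08 to 3.59 in Trim71KO, with all 4 of the listed genes (Gata6, Gata4, Sox17, Sox7) detected. In Experiment 2 they summed to 13.4 to 13.8 CPM in T6B_MUT, 11.4 to 12.9 in T6B_WT, 5.46 to 7.25 in Trim71KO_empty and 8.83 to 12.4 in Ago2KO_empty. Their part in the results below was not tested. Trim71 stood at 602 to 618 CPM in W and 412 to 459 in Trim71KO, and in Experiment 2 at 482 to 503 in T6B_MUT, 417 to 445 in T6B_WT and 393 to 409 in Trim71KO_empty. The Trim71-/- groups were the lowest of their experiments, but T6B_WT, an unedited line, lay close to Trim71KO_empty. Ago2 stood at 134 to 153 CPM in W and at 39.8 to 43.6 in Ago2KO. In the libraries labelled Ago2KO_empty it stood at 87.4, 167 and 45.6 CPM for replicates 1, 2 and 3, against 112 to 143 in T6B_MUT. Replicate 2 thus goes against its label, replicate 1 stood between the Ago2KO and T6B_MUT levels, and only replicate 3 was near Ago2KO. Calls of the libraries labelled Ago2KO_empty against T6B_MUT are given with and without replicate 2, and the 10 genes also with replicate 3 as the lone library of the group. Experiment 2 has no unedited line with the empty plasmid, so in comparisons of Trim71KO_empty or Ago2KO_empty with T6B_MUT the genotype and the plasmid cannot be told apart. In bulk RNA, fewer cells expressing a gene and less RNA per cell cannot be told apart either.

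Per unit of gene length, Bax and Ccng1 were the most abundant of the 10 in the parental line and Casp2 and Bcl2l11 the least. On the authors' RPKM scale the W libraries gave 83.7 ± 6.23 for Bax, the pore-forming effector, and 77.7 ± 3.8 for Ccng1 (SD, n = 3 for these and the following levels). Trp53 followed at 37.7 ± 4.18. Mdm2 (22.4 ± 0.205), Trp53inp1 (22 ± 2.02) and Pmaip1 (21.9 ± 0.67) could not be ordered, because the libraries of neighbours overlapped, and Ei24 stood at 20.7 ± 0.628. The low end held Bbc3 (5.3 ± 0.836), then Casp2 (3.23 ± 0.213) and Bcl2l11 (3.01 ± 0.171), which overlapped. In T6B_MUT, where no neighbours overlapped, the order was different at the top: Ccng1 led with 204 ± 13.5 RPKM, ahead of Bax (89.2 ± 0.704) and Trp53inp1 (79.9 ± 6.02). Trp53 there ranked below Mdm2, Pmaip1 and Ei24, at 20.7 ± 0.59 RPKM, and Bcl2l11 was again last, at 1.72 ± 0.0827.

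The number of these genes that changed ranged from 3 to 8 of 10 between comparisons, and the direction was mostly upward in the groups labelled Ago2-/- and in T6B_WT. Changes were called with edgeR's quasi-likelihood test on counts, at an adjusted p under 0.05 (Benjamini-Hochberg over all genes tested). In Trim71KO against W, 3 of the 10 were called, all lower, against a background of 32.6% of all genes (16.9% higher and 15.6% lower). In Ago2KO against W, 4 were called, 3 of them higher, against 18.0% of all genes (10.2% higher and 7.78% lower). In T6B_WT against T6B_MUT, 3 were called, all higher, against 16.0% of all genes (9.29% higher and 6.69% lower). In Trim71KO_empty against T6B_MUT, 5 were called, 3 of them higher, against 27.8% of all genes (14.4% higher and 13.4% lower). In Ago2KO_empty against T6B_MUT, 8 were called, 6 of them higher, against 28.8% (16.4% higher and 12.4% lower). Without Ago2KO_empty replicate 2 the last count was 6, against 12.4% of all genes higher and 11.2% lower in that fit. With replicates 1 and 2 both left out, where the lone library is assumed to vary like the other groups, it was 4 (against 9.99% of all genes): Ei24 (0.72), Ccng1 (1.05) and Trp53inp1 (0.55) higher and Casp2 (-0.40) lower. Between the edited lines, 5 of 10 were called in Trim71KO against Ago2KO (background 34.2%, or 17.1% in each direction), of which 4 were lower in Trim71KO. In Trim71KO_empty against Ago2KO_empty, 4 were called, all lower in Trim71KO_empty (background 31.6%, or 14.7% higher and 16.9% lower). Without Ago2KO_empty replicate 2 the last count was 5, with Casp2 added as higher (0.22), and 6042 of 21907 genes were called. The shares for Trim71KO against W and for Trim71KO_empty against Ago2KO_empty were near their backgrounds. With only 10 genes a share moves in coarse steps, and no count was tested against its background. The backgrounds also take in tested genes without an annotated 3′ UTR. Of genes with a 3′ UTR but no miR-290 and miR-302 site, 21.1% were higher and 20.1% lower in Trim71KO. These shares were 12.1% and 10.5% in Ago2KO, 11% and 8.5% in T6B_WT, 17.5% and 16.2% in Trim71KO_empty, and 17.7% and 15.1% in Ago2KO_empty. Comparisons with W share those 3 libraries, and comparisons with T6B_MUT share the T6B_MUT libraries, so the changes are given side by side only.

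**Figure D2:**
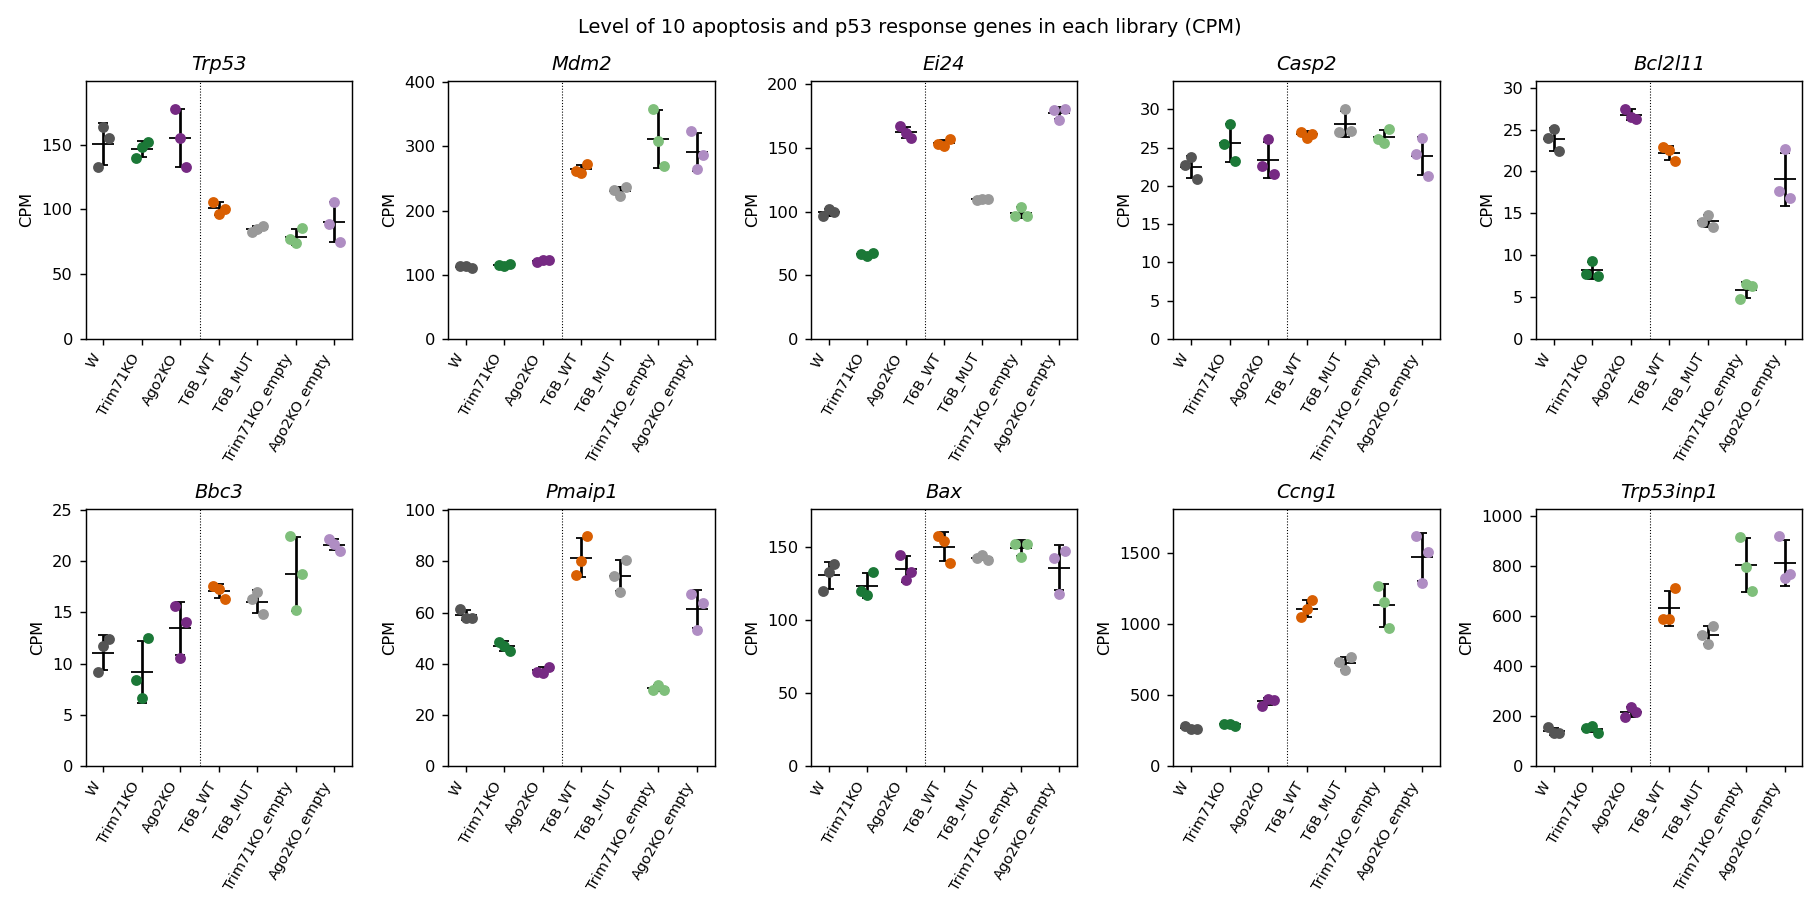
Level of each of the 10 genes in all 21 libraries, in CPM (y axis, from 0), by group (x axis); each circle is 1 library, and the black bars give the mean and SD of 3. Bcl2l11 is low in both Trim71-/- groups (4.71 to 9.28 CPM), Ei24 is high in Ago2KO, T6B_WT and the libraries labelled Ago2KO_empty (152 to 181 CPM), and Mdm2, Ccng1 and Trp53inp1 are higher in every library of Experiment 2 than in any of Experiment 1.

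Ei24, a membrane protein of the endoplasmic reticulum first found as a p53-induced gene, rose in Ago2KO, in T6B_WT and in the libraries labelled Ago2KO_empty, and fell in untransfected Trim71-/- cells. It was measured at 96.9, 102 and 99.6 CPM in W, 167, 162 and 158 in Ago2KO, and 66.9, 65.0 and 67.3 in Trim71KO. The 3 groups did not overlap, and the spread within each was under 5 CPM (SD). The log2 fold change was 0.71 (SE 0.05, edgeR adjusted p = 1.71e-07) in Ago2KO and -0.58 (SE 0.05, edgeR adjusted p = 3.53e-07) in Trim71KO. In Experiment 2, Ei24 stood at 153, 152 and 157 CPM in T6B_WT, 109, 110 and 110 in T6B_MUT, 180, 172 and 181 in the libraries labelled Ago2KO_empty, and 96.7, 104 and 96.5 in Trim71KO_empty. T6B_WT was above T6B_MUT by 0.49 (SE 0.06, edgeR adjusted p = 1.11e-05), and Ago2KO_empty by 0.70 with or without its replicate 2 (edgeR adjusted p = 1.10e-07 with it and 4.38e-08 without it). Trim71KO_empty lay below T6B_MUT in all 3 libraries, but the log2 fold change of -0.14 (SE 0.06) did not pass (edgeR adjusted p = 0.073). It did pass without Ago2KO_empty replicate 2 in the fit (-0.15, edgeR adjusted p = 0.0376). An antisense transcript, Gm26787, overlaps Ei24 in the annotation (chr9:36779159-36797393), and whether the counting used strand is not given in the sources used here.

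Casp2, the caspase activated by the PIDD1 and CRADD platform, is also a published target of embryonic stem cell microRNAs, and its transcript moved little. The libraries gave 22.7, 23.8 and 20.9 CPM in W, 22.6, 26.1 and 21.6 in Ago2KO, and 25.5, 28.1 and 23.2 in Trim71KO, with overlapping groups. The log2 fold change in Ago2KO was 0.06 (95% interval -0.11 to 0.22, edgeR adjusted p = 0.715), so an increase of the size seen for Ei24 lies outside the interval. In Trim71KO it was 0.19 (95% interval 0.02 to 0.35) and did not pass after adjustment (edgeR adjusted p = 0.115). T6B_WT (27.1, 26.3 and 26.8 CPM) and T6B_MUT (27.0, 30.1 and 27.2 CPM) overlapped as well, with a log2 fold change of -0.07 (95% interval -0.22 to 0.08, edgeR adjusted p = 0.614). In the libraries labelled Ago2KO_empty (24.2, 26.2 and 21.3 CPM) Casp2 was lower than in T6B_MUT by -0.24 (SE 0.08, edgeR adjusted p = 0.0319), and by -0.32 without replicate 2 (edgeR adjusted p = 0.00593). Leaving out T6B_MUT replicate 2, Ago2KO_empty replicate 1 or Ago2KO_empty replicate 3 ended that call, with changes of -0.20, -0.27 and -0.18. Ei24 and Casp2 each carry 1 miR-290 and miR-302 site, printed above, and their transcripts did not move alike. A snoRNA gene, Gm25108, overlaps Casp2 on the same strand (chr6:42264985-42282508), so reads of the shared stretch are uncertain.

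Trp53 itself was not called in any of the 7 comparisons with all libraries. Its level was 133, 164 and 155 CPM in W, 140, 148 and 152 in Trim71KO, and 178, 155 and 133 in Ago2KO, and the groups overlapped throughout. The log2 fold changes against W were -0.04 in Trim71KO (95% interval -0.24 to 0.16) and 0.04 in Ago2KO (95% interval -0.16 to 0.24). In Experiment 2 all 3 T6B_WT libraries (106, 96.3 and 100 CPM) lay above the T6B_MUT libraries (82.7, 84.6 and 87.2 CPM), by 0.25 on the log2 scale (SE 0.10, edgeR adjusted p = 0.0874). Leaving Ago2KO_empty replicate 2 or 3 out of the shared fit, or fitting T6B_WT and T6B_MUT alone, turned this into a call, at 0.24 each time (edgeR adjusted p = 0.0179, 0.0203 and 0.00182). Trp53 stood at 76.9, 73.7 and 85.3 CPM in Trim71KO_empty and at 89.0, 106 and 75.1 in the libraries labelled Ago2KO_empty, where the library at 106 is replicate 2. Between these edited lines it was called only without Ago2KO_empty replicate 3 (-0.29, edgeR adjusted p = 0.00657).

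Mdm2, the ubiquitin ligase that degrades p53 and is itself a p53 target, was steady in Experiment 1 and higher in both empty-plasmid groups of Experiment 2. Its level was 113, 113 and 111 CPM in W, 115, 113 and 116 in Trim71KO, and 120, 123 and 123 in Ago2KO. Ago2KO lay above W in every library, by 0.12 on the log2 scale (SE 0.04), which did not pass (edgeR adjusted p = 0.0849) unless low genes were removed by a CPM minimum instead (0.12, edgeR adjusted p = 0.0438). T6B_MUT gave 232, 223 and 236 CPM, T6B_WT 262, 259 and 272, Trim71KO_empty 359, 308 and 269, and the libraries labelled Ago2KO_empty 324, 265 and 286. The T6B_MUT libraries were the lowest of the 4 groups. Mdm2 was higher than in T6B_MUT by 0.44 (SE 0.09, edgeR adjusted p = 0.00118) in Trim71KO_empty and by 0.34 (SE 0.09, edgeR adjusted p = 0.00852) in Ago2KO_empty, or 0.39 without its replicate 2. The call in Ago2KO_empty was lost without T6B_MUT replicate 2 (0.30) or without Ago2KO_empty replicate 1 (0.24). With replicate 3 as the lone library of Ago2KO_empty the difference was 0.31. T6B_WT exceeded T6B_MUT by 0.20 (SE 0.09) without passing (edgeR adjusted p = 0.145), although it passed when these 2 groups were fitted alone (0.19, edgeR adjusted p = 0.00601).

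Ccng1, which recruits protein phosphatase to MDM2, and Trp53inp1, a stress protein that promotes p53 phosphorylation, rose together in Ago2-/- cells. Ccng1 was measured at 286, 261 and 261 CPM in W, 429, 477 and 467 in Ago2KO, and 301, 301 and 287 in Trim71KO. No Ago2KO library came near the W libraries, and the log2 fold change was 0.76 (SE 0.05, edgeR adjusted p = 2.78e-07). In Trim71KO it was 0.14 (SE 0.05), just short of the threshold (edgeR adjusted p = 0.0569) although the libraries did not overlap with W. It passed without W replicate 1 (0.18), Trim71KO replicate 3 (0.16) or Ago2KO replicate 1 (0.14). Trp53inp1 stood at 156, 133 and 133 CPM in W, 197, 239 and 218 in Ago2KO, and 152, 160 and 135 in Trim71KO. Its log2 fold change was 0.63 in Ago2KO (SE 0.09, edgeR adjusted p = 0.00034) and 0.09 in Trim71KO (95% interval -0.08 to 0.26, edgeR adjusted p = 0.492). In Trim71KO against Ago2KO, Ccng1 was lower by -0.63 (edgeR adjusted p = 4.36e-07) and Trp53inp1 by -0.55 (edgeR adjusted p = 0.000362).

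In Experiment 2 both genes stood higher in every library than in any library of Experiment 1. Ccng1 was measured at 732, 680 and 770 CPM in T6B_MUT, 1050, 1110 and 1170 in T6B_WT, 1270, 1160 and 973 in Trim71KO_empty, and 1620, 1290 and 1510 in the libraries labelled Ago2KO_empty. T6B_MUT was the lowest group and did not overlap with any other. The log2 fold changes against T6B_MUT were 0.61 in T6B_WT (SE 0.10, edgeR adjusted p = 0.00028), 0.64 in Trim71KO_empty (SE 0.10, edgeR adjusted p = 8.02e-05) and 1.02 in Ago2KO_empty (SE 0.10, edgeR adjusted p = 8.85e-07), or 1.09 without its replicate 2. Trp53inp1 was measured at 524, 487 and 562 CPM in T6B_MUT, 589, 589 and 713 in T6B_WT, 915, 795 and 699 in Trim71KO_empty, and 918, 753 and 768 in the libraries labelled Ago2KO_empty. It was higher than in T6B_MUT in Ago2KO_empty (0.63, SE 0.11, edgeR adjusted p = 0.000476; 0.67 without replicate 2) and in Trim71KO_empty (0.62, SE 0.11, edgeR adjusted p = 0.000458). T6B_WT exceeded T6B_MUT in every library by 0.27 (SE 0.11) without passing (edgeR adjusted p = 0.108), and it passed when these 2 groups were fitted alone (0.26, edgeR adjusted p = 0.0152).

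Bcl2l11, which encodes the BH3-only protein BIM, had the largest change against W among the 10 genes, and it fell in Trim71-/- cells in both experiments. It was measured at 24.0, 25.1 and 22.4 CPM in W, 7.76, 9.28 and 7.47 in Trim71KO, and 27.5, 26.5 and 26.3 in Ago2KO. Trim71KO held 0.342 times the W level, a log2 fold change of -1.55 (SE 0.08, edgeR adjusted p = 5.96e-09). In Ago2KO the libraries lay above those of W, but by 0.17 only (95% interval 0.02 to 0.32, edgeR adjusted p = 0.150). In Experiment 2, T6B_MUT gave 13.9, 14.8 and 13.4 CPM, Trim71KO_empty 4.71, 6.54 and 6.25, T6B_WT 22.9, 22.5 and 21.3, and the libraries labelled Ago2KO_empty 17.6, 22.7 and 16.8. All 4 groups were separate but for T6B_WT and Ago2KO_empty, where the library at 22.7 CPM is replicate 2. Trim71KO_empty fell to 0.415 times T6B_MUT (log2 fold change -1.27, SE 0.12, edgeR adjusted p = 5.67e-07). T6B_WT rose by 0.67 (SE 0.11, edgeR adjusted p = 0.000479). Ago2KO_empty was higher by 0.44 (SE 0.11, edgeR adjusted p = 0.00775), but without replicate 2 the difference was 0.28 and did not pass (edgeR adjusted p = 0.0546).

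Pmaip1, which encodes NOXA, was lower than the control group in all 4 comparisons of edited lines, by very different amounts. Its level was 61.3, 57.8 and 57.9 CPM in W, 48.7, 47.0 and 45.0 in Trim71KO, and 36.9, 36.6 and 38.8 in Ago2KO, with no overlap between the groups. The log2 fold changes were -0.33 in Trim71KO (SE 0.05, edgeR adjusted p = 0.000221) and -0.66 in Ago2KO (SE 0.05, edgeR adjusted p = 1.40e-06). In Experiment 2 it stood at 74.3, 68.2 and 80.3 CPM in T6B_MUT, 74.6, 79.9 and 89.7 in T6B_WT, 29.8, 31.9 and 29.8 in Trim71KO_empty, and 67.3, 53.1 and 63.9 in the libraries labelled Ago2KO_empty. The order of the edited lines was thus opposite in the experiments, with Trim71KO above Ago2KO by 0.32 (edgeR adjusted p = 0.000258) and Trim71KO_empty below Ago2KO_empty by -1.01 (edgeR adjusted p = 1.16e-07). Trim71KO_empty fell to 0.41 times T6B_MUT (log2 fold change -1.29, SE 0.09, edgeR adjusted p = 1.06e-08). The difference between Ago2KO_empty and T6B_MUT of -0.27 (SE 0.09, edgeR adjusted p = 0.0269) was lost without replicate 2 (-0.20, edgeR adjusted p = 0.0823), without T6B_MUT replicate 1 (-0.29) or 3 (-0.24), and with these 2 groups fitted alone (-0.27). T6B_WT overlapped with T6B_MUT, at 0.13 (95% interval -0.04 to 0.30, edgeR adjusted p = 0.358).

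Bbc3, which encodes PUMA, was a low transcript with a wide spread. Its libraries gave 9.17, 11.7 and 12.4 CPM in W, 8.41, 6.62 and 12.5 in Trim71KO, and 15.6, 10.6 and 14.1 in Ago2KO, and all 3 groups overlapped. The log2 fold changes against W of -0.26 (95% interval -0.74 to 0.22) and 0.28 (95% interval -0.19 to 0.75) did not pass, and the first passed without Trim71KO replicate 3 (-0.56, edgeR adjusted p = 0.0376). In Experiment 2 it stood at 16.3, 17.0 and 14.8 CPM in T6B_MUT, 17.6, 17.3 and 16.3 in T6B_WT, 22.4, 15.2 and 18.7 in Trim71KO_empty, and 22.1, 21.7 and 21 in the libraries labelled Ago2KO_empty. Ago2KO_empty lay above T6B_MUT by 0.43 (SE 0.11, edgeR adjusted p = 0.00507), and by 0.41 without replicate 2 (edgeR adjusted p = 0.0128). With replicate 3 as the lone library of Ago2KO_empty the difference was 0.39. Trim71KO_empty was called only when its own replicate 2 was left out (0.36, edgeR adjusted p = 0.00886; 0.23 with all libraries, edgeR adjusted p = 0.111).

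Bax, whose product forms the mitochondrial pore, was not called in any of the 7 comparisons with all libraries. The libraries gave 120, 133 and 138 CPM in W, 120, 117 and 133 in Trim71KO, 144, 127 and 133 in Ago2KO, and between 118 and 157 CPM in Experiment 2. The 95% intervals of its log2 fold change against W or T6B_MUT all lay between -0.22 and 0.22. Bax was called between the edited lines when Trim71KO replicate 3 (-0.19) or Ago2KO_empty replicate 3 (0.22) was left out. A protein-coding gene model, Gm45808, overlaps Bax on the same strand (chr7:45461697-45466898), so reads of the shared stretch are uncertain.

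**Figure D3:**
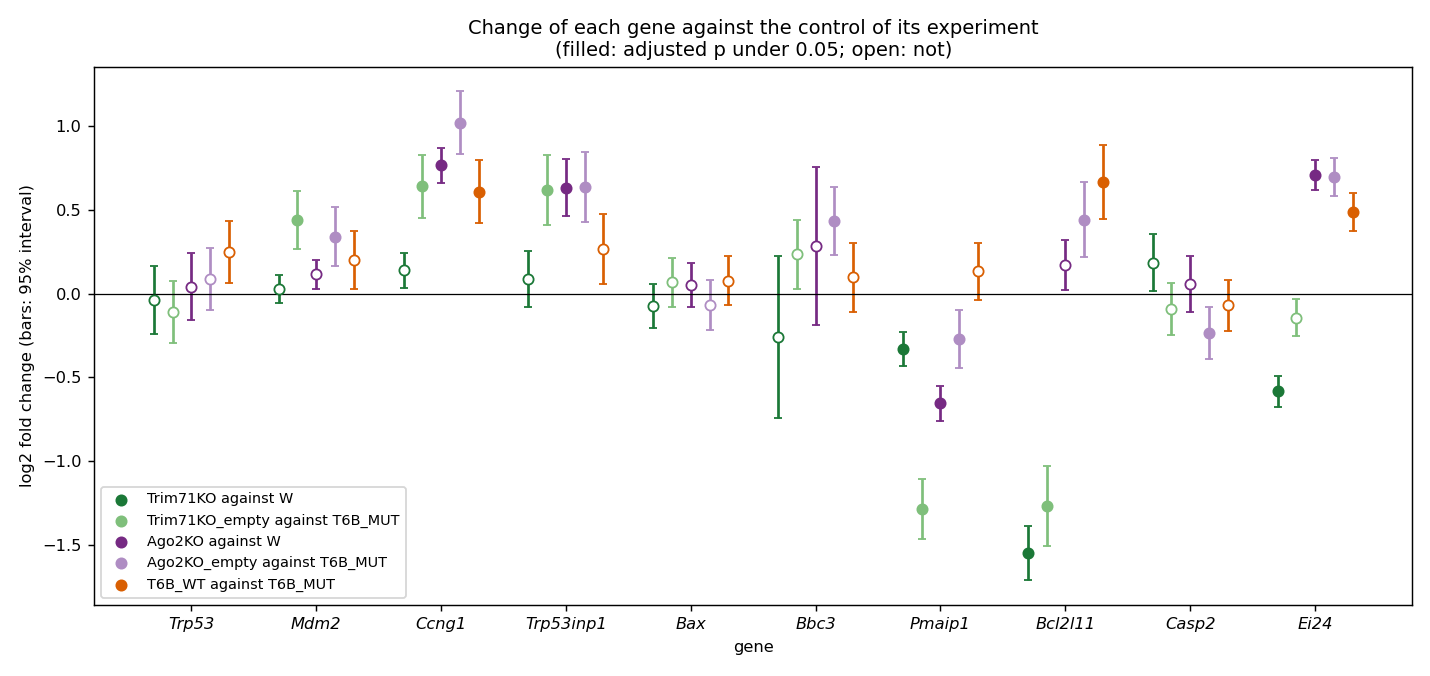
Log2 fold change (y axis) of each of the 10 genes (x axis) with its nominal 95% interval (bars, 1.96 standard errors) in the comparisons with W and with T6B_MUT. Filled markers passed edgeR's adjusted p of 0.05. Bcl2l11 lies at -1.55 in Trim71KO and -1.27 in Trim71KO_empty, Pmaip1 at -1.29 in Trim71KO_empty, and Ei24 and Ccng1 are above 0 in Ago2KO, T6B_WT and Ago2KO_empty.

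The genes with a miR-290 and miR-302 site were mixed in their response. Among the 5 with a site, Ei24, Ccng1 and Trp53inp1 rose in Ago2KO, and Ei24, Bcl2l11 and Ccng1 rose in T6B_WT, while Casp2 was called in neither. Among the 5 without a site, Pmaip1 fell in Ago2KO and none was called in T6B_WT in the shared fit. With T6B_WT and T6B_MUT fitted alone, Trp53 and Mdm2 (no site) and Trp53inp1 (with a site) were called higher. In the libraries labelled Ago2KO_empty, Mdm2 (0.34) and Bbc3 (0.43), without a site, were called higher and Pmaip1 (-0.27) lower. With a site, Ei24, Ccng1, Trp53inp1 and Bcl2l11 were called higher there and Casp2 (-0.24) lower. Without replicate 2 the calls of Pmaip1 and Bcl2l11 were lost. With replicate 3 as the lone library, the log2 fold changes of these genes without a site were 0.31 (Mdm2), 0.39 (Bbc3) and -0.22 (Pmaip1). Those with a site were at 0.72 (Ei24), 1.05 (Ccng1), 0.55 (Trp53inp1), 0.26 (Bcl2l11) and -0.40 (Casp2). Over all genes with an annotated 3′ UTR, 22.2% of the 2417 with the site were called higher in Ago2KO, with a median log2 fold change of 0.07, against 12.1% of the 11919 without it. In T6B_WT the shares were 16.8% of 2465 and 11% of 12147, and in Ago2KO_empty 30.3% and 17.7%, or 23.7% and 13.8% without its replicate 2. Without that library the shares in T6B_WT were 19.8% and 12.8%. In Trim71KO, where Ei24 and Bcl2l11 fell, 25.8% of genes with the site were called higher and 17.7% lower, against 21.1% and 20.1% without it. These shares are a description of annotated 3′ UTRs, since longer 3′ UTRs hold the motif more often.

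The log2 fold change of Trim71-/- cells against their control group, named Trim71 loss below, differed between the experiments for 5 of the 10 genes. The background was 10.1% of all genes (5.04% higher and 5.01% lower in Experiment 2). The test was of the difference of the log2 fold changes (Trim71KO_empty against T6B_MUT minus Trim71KO against W) in a fit of all 21 libraries. Pmaip1 differed by -0.95 (SE 0.11, edgeR adjusted p = 2.37e-06), its fall being deeper in Experiment 2. Ei24 differed by 0.44 (SE 0.07, edgeR adjusted p = 0.000185), and was called lower in Experiment 1 but not in Experiment 2. Mdm2 (0.41, SE 0.11, edgeR adjusted p = 0.0123), Ccng1 (0.50, SE 0.12, edgeR adjusted p = 0.00673) and Trp53inp1 (0.53, SE 0.15, edgeR adjusted p = 0.0277) rose in Trim71KO_empty and were not called in Trim71KO. The difference for Mdm2 was lost without Trim71KO_empty replicate 1 (0.30, edgeR adjusted p = 0.0536). That for Trp53inp1 was lost when any of 6 libraries was left out, W replicate 1 (0.48), Trim71KO replicate 1 (0.54) or 3 (0.47), T6B_MUT replicate 1 (0.55) or 2 (0.51), or Trim71KO_empty replicate 1 (0.43). Bcl2l11, with 0.28 (95% interval -0.02 to 0.59), was not called as different. For Ago2 loss, 0 of the 10 genes differed between the experiments by edgeR's quasi-likelihood test (background 2.13%, of which 1.46% higher and 0.669% lower), and 3 of them (Casp2, Pmaip1 and Ccng1) had an unadjusted p under 0.05, as did 15.1% of all genes. DESeq2 also called 0, and leaving out Ago2KO_empty replicate 2 gave 1, Pmaip1 (0.48, edgeR adjusted p = 0.00648). Calls over all genes were not counted under these alternatives. The experiments differ in transfection and in their control group, so neither can be told apart from the experiment.

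The levels themselves were set apart between the experiments for 4 genes, in a description with no test, because the experiments share no group. CPM were also scaled within each experiment, with no factor that links the scales. Mdm2 spanned 111 to 123 CPM in the 9 libraries of Experiment 1 and 223 to 359 in the 12 of Experiment 2. Ccng1 spanned 261 to 477 and 680 to 1620 CPM, and Trp53inp1 133 to 239 and 487 to 918 CPM. For these 3 every library of Experiment 2 lay above every library of Experiment 1, as did 11.5% of the 16191 genes with a mean of at least 1 CPM. Trp53 moved the other way, from 133 to 178 CPM down to 73.7 to 106, as did 7.37% of genes. The ratio of the T6B_MUT mean to the W mean was 3.73 for Trp53inp1, 2.7 for Ccng1, 2.05 for Mdm2 and 0.564 for Trp53. It was 1.09 for Bax, 1.1 for Ei24, 1.25 for Casp2, 1.26 for Pmaip1, 1.44 for Bbc3 and 0.588 for Bcl2l11, all 6 with overlapping ranges over the experiments. Of 35 other p53 targets, 19 (54.3%) were above in every Experiment 2 library, among them Btg2 (ratio 2.35), the epoxide hydrolase Ephx1 (2.3), Eda2r (2.3) and the apoptosome scaffold Apaf1 (1.9), and 1, Sfn, was below (0.481). Cdkn1a, which encodes the cell cycle inhibitor p21, overlapped, at 4.7 to 9.21 and 6.01 to 10.9 CPM, with a ratio of 1.07. The p53 inhibitor gene Mdm4 spanned 152 to 236 and 300 to 573 CPM.

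**Figure D4:**
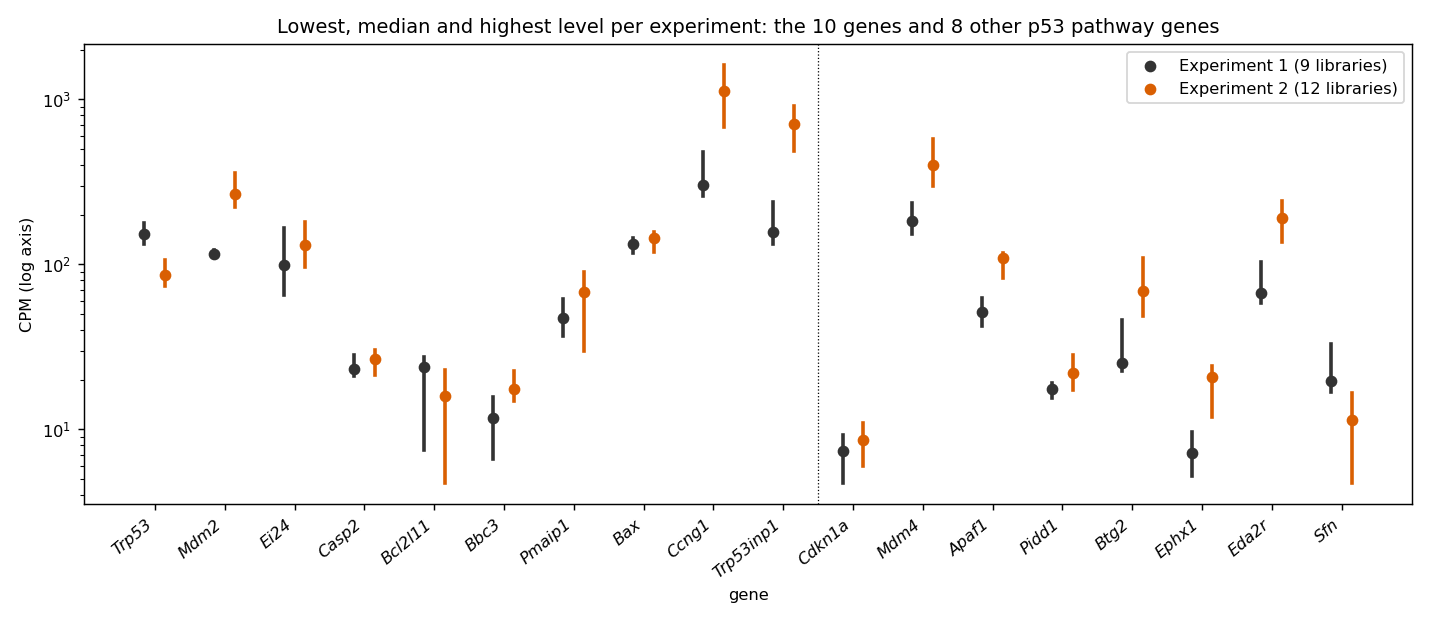
Lowest, median and highest CPM (y axis, log scale) over the 9 libraries of Experiment 1 and the 12 of Experiment 2, for the 10 genes and 8 other genes of the pathway. The ranges are apart and higher in Experiment 2 for Mdm2, Ccng1, Trp53inp1, Mdm4, Apaf1, Btg2, Ephx1 and Eda2r, and apart and lower for Trp53 and Sfn.

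Around the 10 genes, other p53 targets were called mostly in the upward direction in Ago2KO and in each comparison with T6B_MUT. Of 37 listed, 12 were higher and 2 lower in Ago2KO (median log2 fold change 0.18), against 10.2% and 7.78% of all genes. In T6B_WT 15 were called, each of them higher (median 0.23, against 9.29% higher and 6.69% lower among all genes). Ago2KO_empty had 20 higher and 2 lower (median 0.24, against 16.4% and 12.4%), and Trim71KO_empty 15 higher and 2 lower (median 0.26, against 14.4% and 13.4%). In Trim71KO 11 were higher and 10 lower (median 0.07, against 16.9% and 15.6%). Without Ago2KO_empty replicate 2 the counts were 17 higher and 2 lower in Ago2KO_empty (12.4% and 11.2% of all genes in that fit). They were 16 higher and 2 lower in both T6B_WT (10.7% and 8.5% of all genes) and Trim71KO_empty (15.7% and 15.5%). Btg2, an antiproliferative gene, rose from 23.2 to 45.4 CPM in Trim71KO (log2 fold change 0.97, edgeR adjusted p = 1.96e-08), and by 0.86 in Trim71KO_empty. Sfn, which encodes the cell cycle brake 14-3-3 sigma, fell by 0.82 in Trim71KO, by 0.71 in Ago2KO and by 1.56 in Ago2KO_empty (-1.52 without replicate 2). Ephx1 rose by 0.74 in Ago2KO and by 0.95 in T6B_WT, Notch1, the receptor of the Notch pathway, rose by 0.71 in Ago2KO_empty (0.47 without replicate 2), and the kinase gene Plk3 fell by 0.58 in Trim71KO_empty. Cdkn1a was higher in Ago2KO by 0.55 (edgeR adjusted p = 0.00563) and in T6B_WT by 0.59 (edgeR adjusted p = 0.0163), from a level of under 11 CPM, and in Trim71KO the 0.33 did not pass (edgeR adjusted p = 0.0577). It was higher by 0.50 in Trim71KO_empty and by 0.53 in Ago2KO_empty, where the call was lost without replicate 2 (0.34, edgeR adjusted p = 0.0962). Pidd1, whose product activates caspase 2, was called in Ago2KO_empty alone (0.39, edgeR adjusted p = 0.0146), and not without its replicate 2 (0.29, edgeR adjusted p = 0.0695), with values of 0.18 to 0.28 in the other comparisons with W or T6B_MUT.

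The regulators of p53 and the other apoptosis genes were called in both directions. Of 25 p53 regulators tested, 5 were higher and 2 lower in Ago2KO, and 4 higher and 4 lower in Trim71KO. In Experiment 2 the calls were 3 in T6B_WT and 7 in Ago2KO_empty, each of them higher, and 3 in Trim71KO_empty, each of them lower. Without Ago2KO_empty replicate 2, 4 regulators were higher and 1 lower in Ago2KO_empty, 5 were called in T6B_WT, each higher, and 4 in Trim71KO_empty, each lower. Of all genes, that fit called 12.4% higher and 11.2% lower in Ago2KO_empty, 10.7% and 8.5% in T6B_WT, and 15.7% and 15.5% in Trim71KO_empty. Mdm4 was higher in Ago2KO (0.41, edgeR adjusted p = 0.0071), in T6B_WT (0.50, edgeR adjusted p = 0.0121) and in Ago2KO_empty (0.74, edgeR adjusted p = 0.000615; 0.64 without replicate 2), while the 0.10 in Trim71KO and 0.25 in Trim71KO_empty did not pass. The p53 relative Trp73, at 3.12 CPM in T6B_MUT, rose by 1.11 in T6B_WT and by 1.51 in Ago2KO_empty (1.35 without replicate 2). Sirt1, a deacetylase of p53, fell by 0.29 in Ago2KO, and the ribosomal protein gene Rpl11, whose product binds MDM2, fell by 0.25 in Trim71KO_empty. In Trim71KO the damage kinase gene Atm rose by 0.31. Trp53i11, which is on this list although its name marks a p53-induced gene, fell by 0.36. Of the other BCL2 family genes, 1 of 18 was higher and 4 lower in Ago2KO, among them the pore-forming relative Bok (-0.56) and Bak1 (-0.24), and 3 were higher and 3 lower in Trim71KO. In Experiment 2, 4 of 19 were called in T6B_WT, each of them lower, while 3 were higher and 1 lower in Trim71KO_empty, and 1 higher and 6 lower in Ago2KO_empty, with or without its replicate 2. Without that library Trim71KO_empty had 3 higher and 4 lower, and T6B_WT 1 higher and 5 lower. Bok also fell in Trim71KO_empty (by 0.49) and in Ago2KO_empty (by 0.98, or -1.07 without replicate 2), and Bak1 in Ago2KO_empty (by 0.42, or -0.44 without replicate 2). The survival gene Bcl2l1 fell in Trim71KO by 0.36 (edgeR adjusted p = 0.000862) and was between -0.04 and 0.12 in the other comparisons with W or T6B_MUT. Mcl1, another survival gene and the partner of NOXA, fell by 0.20 in Ago2KO and rose by 0.31 in Trim71KO_empty. Bid, whose product links death receptors to mitochondria, rose by 0.41 in Trim71KO and fell by 0.56 in T6B_WT. Bnip3 fell by 0.78 in Trim71KO, its relative Bnip3l rose by 0.31 in Ago2KO and 0.40 in Ago2KO_empty (0.35 without replicate 2), and the BH3-only gene Hrk rose by 0.49 in Trim71KO_empty. Bcl2 stood at about 1 CPM (0.935 in W and 1.42 in T6B_MUT) and was called lower in Ago2KO_empty (-0.78, edgeR adjusted p = 0.045; -1.06 without replicate 2). In Trim71KO_empty the -0.76 was called only without that library (-0.77, edgeR adjusted p = 0.0282). Of 23 caspase and apoptosome genes, 4 were higher and 4 lower in Ago2KO, 6 and 3 in Trim71KO, 5 and 3 in T6B_WT, 6 and 3 in Trim71KO_empty, and 4 and 6 in Ago2KO_empty (3 and 6 without replicate 2). In Trim71KO, 32% of the regulators, 33.3% of the BCL2 family and 39.1% of the caspase list were called in either direction, against 32.6% of all genes. The shares in Ago2KO were 28%, 27.8% and 34.8% (18.0% of all genes), in T6B_WT 12%, 21.1% and 34.8% (16.0%), in Trim71KO_empty 12%, 21.1% and 39.1% (27.8%), and in Ago2KO_empty 28%, 36.8% and 43.5% (28.8%). Several of these lie at or below the share of all genes. Genes with a 3′ UTR but no miR-290 and miR-302 site were called more often than all genes, in Trim71KO 21.1% higher and 20.1% lower. Apaf1 was higher in all 5 comparisons with W or T6B_MUT, by 0.21 in Trim71KO, 0.44 in Ago2KO, 0.43 in T6B_WT, 0.27 in Trim71KO_empty and 0.43 in Ago2KO_empty (0.40 without replicate 2). Casp8, the initiator downstream of death receptors, rose by 1.19 in Trim71KO (edgeR adjusted p = 1.03e-06) and by 1.11 in Trim71KO_empty, and by 0.56 in T6B_WT. Casp9, the initiator of the apoptosome, rose by 0.47 in Trim71KO and by 0.30 in Trim71KO_empty. Cflar, an inhibitor of caspase 8, fell by 0.38 in Ago2KO and by 0.44 in Ago2KO_empty (-0.53 without replicate 2). Dffa fell by 0.36 in Trim71KO, Endog by 0.74 in Trim71KO_empty and Htra2 by 0.34 in T6B_WT. Between the edited lines, Casp8 was higher in Trim71KO than in Ago2KO by 1.01 and in Trim71KO_empty than in Ago2KO_empty by 1.05, and Bid by 0.87 and 0.78. Eda2r (-0.63), the adaptor gene Fadd (-0.77) and Bnip3l (-0.68) were lower in Trim71KO than in Ago2KO. Apaf1, Pidd1 and Ppm1d stand on 2 of these lists.

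**Figure D5:**
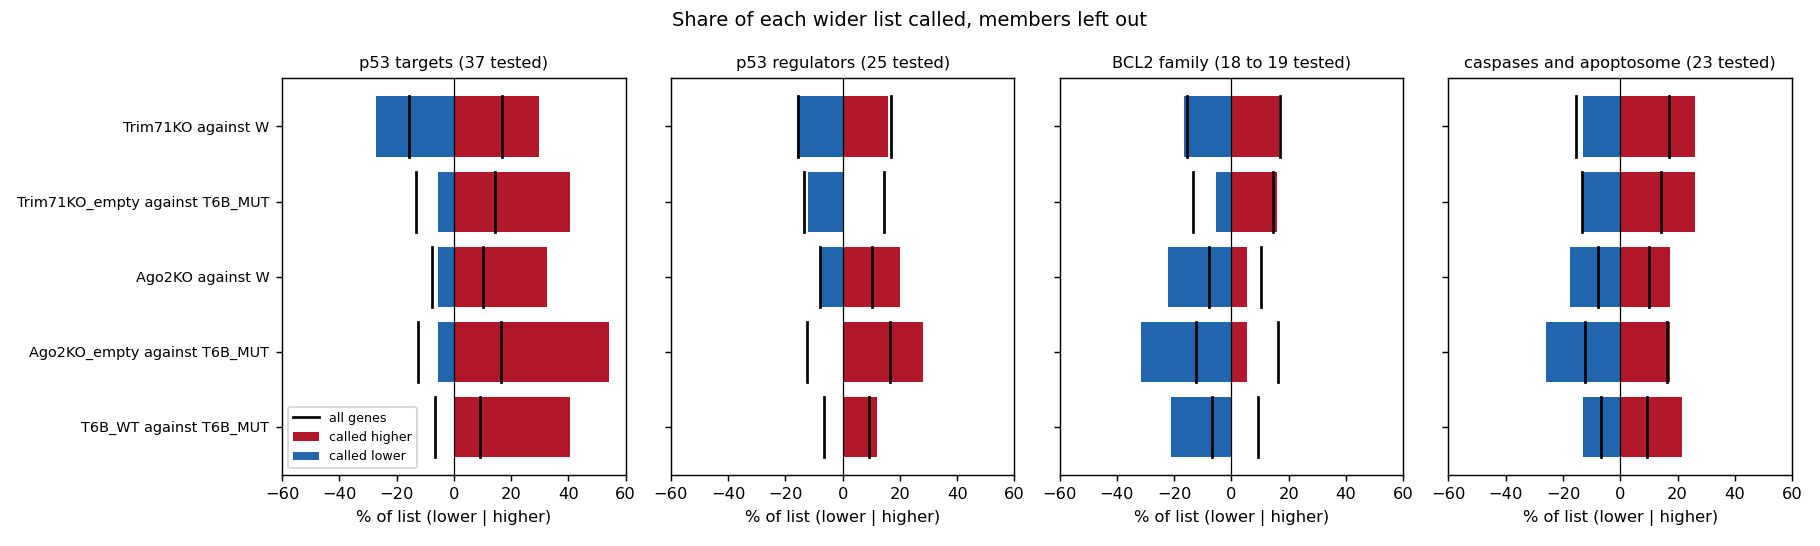
Percent (x axis) of the tested genes of each list called higher (right of 0) or lower (left of 0) in each comparison with W or T6B_MUT, with black lines for the same over all genes tested; the 10 genes themselves are left out of the lists. The p53 targets have 15 of 37 genes called in T6B_WT, each of them higher, and 11 higher and 10 lower in Trim71KO.

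For 3 of the genes, the transcripts with the most similar pattern were sought by the root mean square difference over the 7 group means of log2 CPM, each centred on its experiment, among 10696 genes. For Ei24, whose own pattern had a root mean square of 0.432, these were Nup62cl (0.058), Abcb1a (0.067) and Mfge8 (0.071). For Casp2 (own 0.083) they were Plxnb1 (0.02), Zfp61 (0.021) and Fdxacb1 (0.024). For Trp53 (own 0.101) they were Fkbp10 (0.023), Gm7413 (0.031) and Rpl23a-ps1 (0.032). A pattern as flat as those of Casp2 and Trp53 lies close to that of many steady genes. The differences rest on 7 means and are given as a description.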

How the data were processed

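Stranded total RNA libraries were sequenced, per the labels' protocols. The submitters' processing notes name bcl2fastq 2.17, STAR 2.7.3a and the mouse build GRCm38, and the annotation and use of strand in counting are not given in the sources used here. The authors deposited raw counts per gene, RPKM values and a gene length, per the file headers. The deposited counts were tested with edgeR 4.0.16 in R 4.3.3 (TMM, filterByExpr with a minimum count of 10, robust quasi-likelihood, Benjamini-Hochberg over all genes tested), over 21210 genes in the 9 libraries of Experiment 1, 21505 in the 12 of Experiment 2, and 22258 in all 21 for differences between experiments. RPKM values as deposited by the authors served only to order levels between genes. Intervals are 1.96 standard errors on each side. Depth is known from the counts, and intervals cover the spread between libraries. The 10 genes, the wider lists, the markers and the rule for named genes were chosen with earlier results of these data known. From each list, the genes with the largest called rise and fall per comparison (mean log2 CPM of at least 2) and a fixed set (Cdkn1a, Mdm4, Bcl2, Bcl2l1, Mcl1, Bak1, Casp9, Apaf1, Pidd1) were taken for naming, all of them for the comparisons with W or T6B_MUT and the larger changes between edited lines. A few items are not reported here. Markers of fibroblasts (summed 10.3 to 17.6 CPM), blood (Cd68 alone in the table, 10.5 to 18.7), mesoderm (T, 0.0832 to 0.793) and neural cells (6.59 to 15.6) were low in all libraries. Alternatives were DESeq2 1.42.0, size factors, other low-count filters, groups fitted alone, a replicate block and each library left out. The wider lists and site shares were also refitted without Ago2KO_empty replicate 2, and the 10 genes without its replicates 1 and 2, alternatives chosen after seeing the data. The fit was tested on simulated data.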

Additional observations from a re-analysis of the deposited data

Results flagged for a closer look

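The log2 fold change of Trim71-/- cells against their control group differed between the experiments for 5 of the 10 genes, against 10.1% of all genes. The difference itself was tested (log2 fold change in Experiment 2 minus that in Experiment 1, edgeR's quasi-likelihood test, Benjamini-Hochberg adjusted over 22258 genes). The differences were -0.95 for Pmaip1, 0.44 for Ei24, 0.5 for Ccng1, 0.41 for Mdm2 and 0.53 for Trp53inp1. Pmaip1 was lower than the control in 3 of 3 libraries in both experiments, at 0.795 times W and 0.41 times T6B_MUT. Ei24 was at 0.667 times W and 0.906 times T6B_MUT. Ccng1, Mdm2 and Trp53inp1 were at 1.1, 1.02 and 1.06 times W and at 1.56, 1.35 and 1.53 times T6B_MUT. The call for Mdm2 was lost without Trim71KO_empty replicate 1, and that for Trp53inp1 without any of 6 libraries. In Trim71KO_empty against Ago2KO_empty, Mdm2 (0.10) and Trp53inp1 (-0.02) were not called, and Ccng1 (-0.38), Pmaip1 (-1.01) and Ei24 (-0.84) were. The 2 control groups differ in plasmid, so in Experiment 2 its part in these differences cannot be told apart from that of the genotype.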

How the results depend on the processing

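Of 1690 alternative values for the 10 genes, 1620 kept their direction and their side of the threshold, 18 lost the call, 25 gained one and 27 changed sign. Those 27 were not called with all libraries, and none was larger than 0.138 there or 0.093 under the alternative. Among the 520 that leave out no library, 511 kept both. Casp2 and Pmaip1 lost the call in Ago2KO_empty with its 2 groups fitted alone. Trp53inp1 changed sign in the difference of Ago2 loss between experiments, from -0.008 to 0.007, with a minimum CPM as filter. With T6B_WT and T6B_MUT fitted alone, 6 of the 10 genes and 5632 of all genes were called, against 3 and 3437 in the shared fit. The cause was not tested.

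With each library left out in turn, the number of the 10 genes called ran from 3 to 6 in Trim71KO against W (6 without Trim71KO replicate 3), from 3 to 5 for the difference of Trim71 loss between experiments (3 without Trim71KO_empty replicate 1), and from 0 to 1 for that of Ago2 loss. Of all genes, 7290 were called in Trim71KO against W without Trim71KO replicate 3, and 6906 with all libraries. For the differences between experiments, calls over all genes were not counted under the alternatives. All genes called ran from 2045 to 4212 in T6B_WT (lowest without T6B_MUT replicate 1) and from 3894 to 8083 in Ago2KO_empty (lowest without T6B_MUT replicate 1, and 3923 without Ago2KO_empty replicate 1). The highest count came without Ago2KO_empty replicate 2 in T6B_WT. In Ago2KO_empty it came without its replicate 3, the library with Ago2 near the Ago2KO level. The cause was not tested, beyond the smaller number of libraries. Small log2 fold changes crossed 0. Those of Trp53 ran from -0.124 to 0.025 in Trim71KO, from -0.069 to 0.141 in Ago2KO, from -0.182 to 0.029 in Trim71KO against Ago2KO, and from -0.066 to 0.176 in Ago2KO_empty. Its differences between experiments ran from -0.136 to 0.046 for Trim71 loss and from -0.093 to 0.146 for Ago2 loss. Casp2 in Ago2KO ran from -0.024 to 0.111, and Bax from -0.006 to 0.093 in Ago2KO and from -0.155 to 0.004 in Ago2KO_empty. Trp53inp1 ran from -0.103 to 0.093 in Trim71KO_empty against Ago2KO_empty. For the difference of Ago2 loss, Ei24 ran from -0.049 to 0.024, Bbc3 from -0.013 to 0.287 and Trp53inp1 from -0.12 to 0.055.

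Replicate numbers are shared between groups, but samples of the same number did not deviate together in all pairs of any comparison (correlations of deviations from -0.71 to 0.71), and in none did every sample correlate best with its own number. With the replicate number as a block, 4 of the 10 genes were called in Trim71KO (Casp2 added, 0.19), 6 in Trim71KO against Ago2KO (Bbc3 added, -0.57) and 3, 5 and 8 in T6B_WT, Trim71KO_empty and Ago2KO_empty, as without it. Genes called with the block numbered 6886 in Trim71KO, 3831 in Ago2KO, 7188 in Trim71KO against Ago2KO, 3247 in T6B_WT, 5801 in Trim71KO_empty and 5976 in Ago2KO_empty. Precision was lowest for Bbc3 in Experiment 1, where it stood at 6.62 to 15.6 CPM and its standard error reached 0.25, and for Bcl2l11 in Experiment 2, with a standard error of up to 0.12.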
